A study of Mus musculus with 2 samples.

Results

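The genes described here encode 8 liver enzymes that break down amino acids, Tat, Hpd, Hgd, Fah, Tdo2, Hal, Sds and Uroc1. They were chosen by symbol, and each symbol matched 1 of the 32285 genes in the count tables of both liver sections. The sections came from male C57BL/6J mice bought at 5 weeks of age. One mouse of the NCD group received the control diet and one of the HFD group received a 60% high-fat diet, both with 14 weeks of diet induction and then 8 weeks of distilled water by mouth once daily, with no drug. One section of 10 µm per diet was measured by spatial transcriptomics on 10x Visium slides, where each barcoded spot collects RNA from several neighbouring cells and molecules are counted by unique molecular identifiers (UMIs). With a single section each, the diet cannot be told apart from the animal, the section or the slide, so diets were compared without a test, and the 95% intervals cover counting error only. Fasting blood glucose was measured before sampling, but the sources used here do not state whether the livers were taken in the fasted state.

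The liver is the main site where surplus amino acids are degraded. In tyrosine breakdown, Tat removes the amino group, Hpd turns the resulting keto acid into homogentisate, Hgd opens the ring of homogentisate, and Fah makes the final cut that yields fumarate and acetoacetate. Tdo2 opens the indole ring of tryptophan at the start of the kynurenine pathway. Hal removes ammonia from histidine to give urocanate, which Uroc1 hydrates, and Sds turns serine into pyruvate and ammonia. Loss of Fah, Hpd or Tat causes inherited tyrosinaemia in humans, and loss of HGD causes alkaptonuria. Tat, Tdo2 and Sds are textbook targets of glucocorticoids and glucagon. Blood crosses the liver lobule from the portal vein to the central vein, and hepatocytes near each vein carry different enzymes, with ammonia detoxification by the urea cycle near the portal vein and glutamine synthesis next to the central vein.

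On GRCm38, the GENCODE M21 annotation places Tat at chr8:109990437-109999803 (plus strand), Hpd at chr5:123171807-123182727 (minus), Hgd at chr16:37580153-37632020 (plus) and Fah at chr7:84585159-84606722 (minus). Tdo2 lies at chr3:81957090-81976202 (minus), Hal at chr10:93488768-93519304 (plus), Sds at chr5:120476526-120483932 (plus) and Uroc1 at chr6:90333284-90364551 (plus). The 250 bases before the transcription start are shown for Hal and Uroc1, which act in succession on histidine and were higher near the portal vein, and for Tat and Hpd, which act in succession on tyrosine and ran in opposite directions along the lobule. Sequences are RefSeq's for GRCm38.p6, 5′ to 3′ on the strand of the gene, and capitals mark every match, on either strand, to CCAAT (the CCAAT box) or TATAAA (the TATA box). The windows are chr10:93488518-93488767 for Hal, chr6:90333039-90333288 for Uroc1, chr8:109990186-109990435 for Tat and chr5:123182724-123182973 for Hpd.
Hal: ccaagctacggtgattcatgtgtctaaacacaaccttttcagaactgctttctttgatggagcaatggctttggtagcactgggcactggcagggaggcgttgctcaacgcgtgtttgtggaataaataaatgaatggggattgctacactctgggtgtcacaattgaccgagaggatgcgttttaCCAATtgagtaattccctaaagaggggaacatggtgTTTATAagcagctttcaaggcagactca
Uroc1: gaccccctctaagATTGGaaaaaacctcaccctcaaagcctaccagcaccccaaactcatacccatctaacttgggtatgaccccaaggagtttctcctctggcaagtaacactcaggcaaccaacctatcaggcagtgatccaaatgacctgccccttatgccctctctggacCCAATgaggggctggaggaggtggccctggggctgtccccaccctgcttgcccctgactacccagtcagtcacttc
Tat: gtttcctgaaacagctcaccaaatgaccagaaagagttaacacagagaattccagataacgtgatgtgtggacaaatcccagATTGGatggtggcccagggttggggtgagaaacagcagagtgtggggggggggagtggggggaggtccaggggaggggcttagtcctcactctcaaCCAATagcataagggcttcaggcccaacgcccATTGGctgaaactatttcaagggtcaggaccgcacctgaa
Hpd: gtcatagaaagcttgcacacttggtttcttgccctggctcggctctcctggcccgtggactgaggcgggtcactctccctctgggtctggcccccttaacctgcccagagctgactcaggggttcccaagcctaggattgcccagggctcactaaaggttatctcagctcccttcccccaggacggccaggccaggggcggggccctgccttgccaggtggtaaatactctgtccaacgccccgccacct
In RefSeq's table, 7 of the 8 members had an entry, the exception being Sds. In the Hal window, CCAAT began at -64, counted from the transcription start, and TATAAA lay on the opposite strand at -28. The Uroc1 window held CCAAT at -76 and, on the opposite strand, at -237. Tat had 3 matches to CCAAT, at -72 and, on the opposite strand, at -168 and -40. Hpd and Fah had no match to either motif. Hgd and Tdo2, not printed, had both motifs. Of 32851 promoter windows of 300 bases, 37.4% held CCAAT and 13.6% held TATAAA. No member's window held TGTTTAC (forkhead, in 3.65% of all windows), AGAACA (one arm of a glucocorticoid receptor site, 19.0%), TGACGTCA (cyclic AMP response element, 1.79%), TTGCGCAA (C/EBP, 0.183%) or CAAAGTCCA (HNF4A, 0.475%). Matches describe these letters only.

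The 2 sections differed in depth. Spots over tissue numbered 3692 in NCD and 3594 in HFD, with totals of 29037988 and 72118803 UMIs and medians of 4187.5 and 18549 UMIs per spot. Spots off tissue on the NCD slide had a median of 3383 UMIs, close to that of spots over tissue, against 1175.5 on the HFD slide. The labels also carry a stem cell and an immune cell entry beside liver as the tissue. Hepatocyte markers (Alb, Apoa1, Ttr, Apoa2) made up 99487 CPM (UMIs per 1000000 UMIs) in NCD and 113606 CPM in HFD, while T cell markers (Cd3d, Cd3e, Cd3g) made up 8.16 and 5.77 CPM and B cell markers 3.24 and 2.68 CPM. Red blood cell transcripts were at 6676 and 1246 CPM. Bile duct markers (Epcam, Krt19, Krt7, Sox9, Spp1) were at 49.9 and 200.4 CPM.

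Over all spots over tissue, the tyrosine enzymes among the members did not share a direction. Tat was higher in the HFD section, near the median shift of all genes, whereas Hpd, Hgd and Fah were all lower, Hpd by the most. Tdo2 and Hal were also lower, Uroc1 was slightly higher, near the median shift of all genes, and Sds was nearly equal. In a spot that holds several cells, fewer cells of a type and less RNA per cell cannot be told apart.

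Hpd, the dioxygenase that forms homogentisate, had 53663 UMIs or 1848 CPM (95% interval 1832 to 1864) in the NCD section and 71517 UMIs or 992 CPM (984 to 999) in the HFD section. The log2 ratio of HFD to NCD was -0.90 (-0.91 to -0.88), so that the NCD level was 1.86-fold the HFD level. Fah, which ends the pathway, fell from 648 CPM (639 to 657) to 435 CPM (430.1 to 439.8), a log2 ratio of -0.57 (-0.60 to -0.55). Hgd, the enzyme between Hpd and Fah, was at 613 CPM (604 to 622) and 424 CPM (419 to 428), with a log2 ratio of -0.53 (-0.56 to -0.51). Tat, which feeds the pathway, was at 748 CPM (738 to 758) in the NCD section and 917 CPM (910.2 to 924) in the HFD section. Its log2 ratio of 0.29 (0.27 to 0.32) was close to the median of 0.21 over all 8561 genes with at least 500 UMIs, and 57.2% of those genes had a lower ratio.

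The tryptophan enzyme Tdo2 was at 1702 CPM (1687 to 1718) in NCD and 1330.0 CPM (1322 to 1338) in HFD, and its log2 ratio was -0.36 (-0.37 to -0.34). Of the histidine pair, Hal was lower and Uroc1 close to the median of all genes. Hal was at 219 CPM (213 to 224) and 139.6 CPM (137 to 142), with a log2 ratio of -0.65 (-0.69 to -0.60). Uroc1, which uses the product of Hal, was at 125 CPM (121 to 129) and 150.3 CPM (147 to 153), with a log2 ratio of 0.27 (0.22 to 0.32), a lower value being found for 55.4% of all genes. It was 0.06 when centred on the median of all genes and 0.11 at 1000 UMIs per spot. Sds was at 186 CPM (181 to 191) in NCD and 193 CPM (189.8 to 196) in HFD, and its log2 ratio was 0.05 (0.01 to 0.10). Sds was the single member whose direction turned with how spots were weighted or scaled, with -0.12 for CPM averaged spot by spot and -0.25 with 5 zones of the lobule, defined below, weighted equally.

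A change of 1.5-fold, or 0.58 on the log2 scale, was taken as a call. All 8 members passed the minimum of 500 UMIs, and 2 of them, Hpd and Hal, were lower in HFD by that size, against 4.1% of all genes tested. None was higher, against 21.2% of all genes. At 2-fold no member was lower or higher, against 1.64% and 7.73% of all genes. Fah and Hgd lay just inside the limit at -0.57 and -0.53. The median log2 ratio of the members was -0.44, beside 0.21 over all genes, and once ratios were centred on that median Fah (-0.79) and Hgd (-0.74) were past 1.5-fold as well. Removing the profile of spots off tissue took away most of the NCD signal, since the off-tissue median was 0.808 of that over tissue there. The log2 ratios were then -0.26 for Hpd, 0.95 for Fah, 0.85 for Tat and 5.06 for Sds, and Hal and Uroc1 gave no value, so the diet values above rest on that subtraction not being made.

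**Figure D1:**
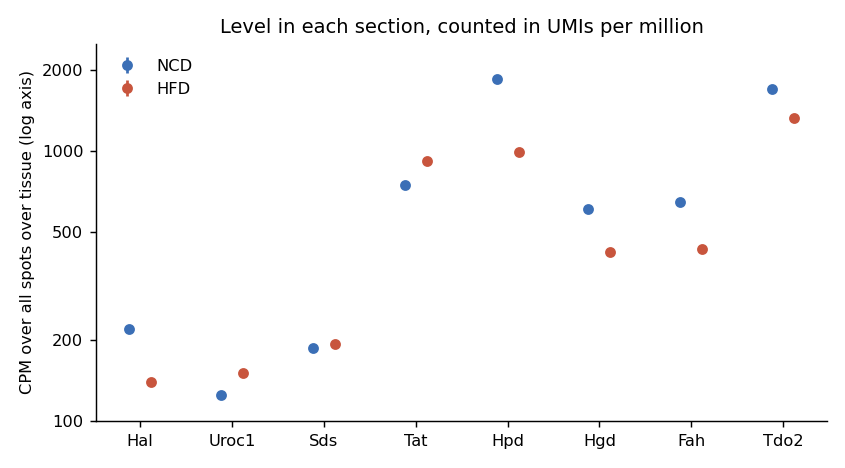
Level of each enzyme in the NCD section (blue) and the HFD section (red), in CPM over all spots over tissue on a log axis. Bars are exact Poisson intervals and are mostly smaller than the points. Hpd went from 1848 to 992 CPM and Hal from 219 to 139.6 CPM, while Tat rose from 748 to 917 CPM.

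To follow the enzymes along the lobule, spots with at least 1000 UMIs (2852 NCD and 3590 HFD spots) were ranked within each section by 8 periportal landmark genes (Cyp2f2, Hsd17b13, Pck1, Ass1, Asl, Pigr, Cdh1, Cps1) minus 8 pericentral ones (Cyp2e1, Cyp1a2, Glul, Slc1a2, Rhbg, Lect2, Gulo, Cyp2c37), none of them an enzyme described here. The ranked spots were cut into 5 zones of equal size, from zone 1 at the pericentral end to zone 5 at the periportal end, and a gradient is the log2 ratio of CPM in zone 5 over zone 1. The zones are ranks and need not hold the same layer of the lobule in both sections. Their median depth ran from 8259 UMIs in zone 1 to 4283 in zone 5 of NCD, and from 16811.5 to 27160 in HFD. Bile duct markers rose towards the periportal end as well, from 11.5 to 139.8 CPM in NCD and from 74.7 to 367 CPM in HFD, and their part in the gradients was not tested.

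The members that act on histidine (Hal and Uroc1) and on serine (Sds) were concentrated at the periportal end in both sections. Hal, Sds and Uroc1 passed 1.5-fold there in each section, whereas 3.11% of all 6978 genes tested in NCD and 3.47% of 10038 in HFD did so. They passed 2-fold as well, which 1.25% and 1.24% of all genes did. Hal and Sds had a higher gradient than 99.8% of all genes in the NCD section, and Uroc1 than 99.4%.

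Hal was at 85.2, 115, 204, 331 and 442 CPM from zone 1 to zone 5 of the NCD section. The last value was 5.19-fold the first, a gradient of 2.38 (2.23 to 2.52). In the HFD section Hal was at 57.6, 79.5, 96.3, 158 and 242 CPM, a 4.21-fold rise with a gradient of 2.07 (1.96 to 2.19). Zone 3 stood at 204 CPM in NCD and 96.3 CPM in HFD.

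Sds had the steepest profile of the 8 members along the HFD section, and along NCD it was within counting error of Hal. It was at 75.6, 88.8, 152, 301 and 402 CPM along the NCD section, a 5.32-fold rise with a gradient of 2.41 (2.26 to 2.56). Along the HFD section it was at 68.3, 91.7, 124, 207 and 368 CPM, a 5.39-fold rise with a gradient of 2.43 (2.33 to 2.53). Zone 5 held 52.7% of all Sds UMIs in ranked HFD spots and 31.0% in NCD spots, but it also held 27.6% and 14.2% of all UMIs.

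Uroc1 followed Hal with a shallower slope. Its NCD levels were 71.8, 93.0, 122, 162 and 199 CPM, a gradient of 1.47 (1.298 to 1.64). Its HFD levels were 89.4, 129.9, 147, 167 and 192 CPM, a gradient of 1.10 (1.004 to 1.196). Both sections thus ended near the same periportal level, and the HFD section started from a higher pericentral one.

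**Figure D2:**
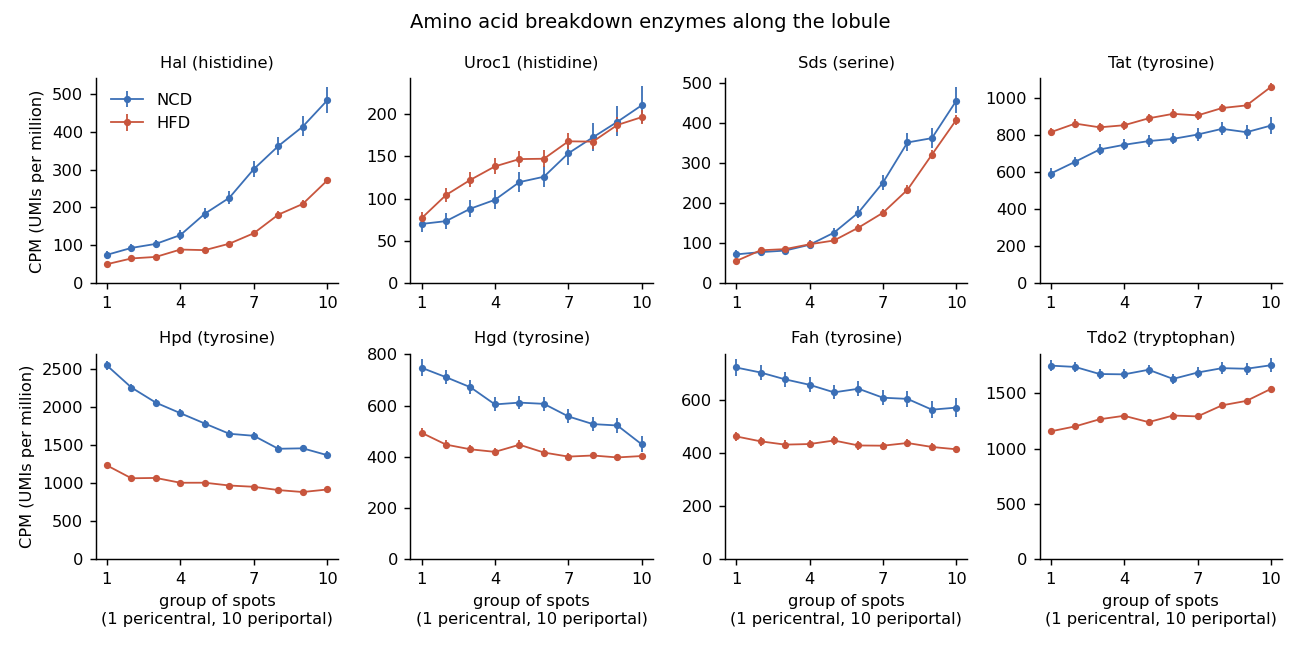
Level of each enzyme in CPM (vertical axes, linear from 0) over 10 equal groups of spots ranked from pericentral to periportal (horizontal axes), for NCD (blue) and HFD (red), with exact Poisson intervals as bars. Hal, Uroc1 and Sds climbed towards the periportal end, Hpd declined from 2550.4 to 1370.2 CPM in NCD, and Tdo2 climbed in HFD only.

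The tyrosine enzymes did not share a direction along the lobule. Tat was higher at the periportal end and Hpd and Hgd at the pericentral end, in both sections. Fah was higher at the pericentral end in NCD, while its slope in HFD had no settled sign, as given below. Of these, only Hpd in the NCD section passed 1.5-fold, where 10.8% of all genes were that much higher at the pericentral end. In the HFD section no member passed it in that direction, against 7.13% of all genes. At 2-fold no member was pericentral in either section, against 2.58% of genes in NCD and 2.14% in HFD.

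Tat was at 627, 734, 773, 818 and 830.4 CPM along the NCD section, with a gradient of 0.41 (0.34 to 0.47). In the HFD section it was at 837, 847, 903, 927 and 1013 CPM, with a gradient of 0.28 (0.24 to 0.31). It rose at every step in both sections, and 94.4% of genes in NCD and 90.9% in HFD had a lower gradient. The median gradient over all genes was -0.15 in NCD and -0.12 in HFD.

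Hpd showed the largest slope of the pathway. It was at 2394, 1996, 1719.6, 1542 and 1423 CPM from zone 1 to zone 5 of NCD, a gradient of -0.75 (-0.79 to -0.71). In the HFD section its levels were 1157, 1039, 989, 931 and 903 CPM, a gradient of -0.36 (-0.39 to -0.33). The highest HFD zone lay below the lowest NCD zone.

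Hgd was at 728, 640.5, 609.6, 544 and 492 CPM along the NCD section, a gradient of -0.57 (-0.64 to -0.49), just short of the limit. In the HFD section it was at 473, 425, 432, 403 and 401 CPM, with a gradient of -0.24 (-0.29 to -0.19). Fah was flatter, at 714, 670.1, 637, 608 and 569 CPM in NCD with a gradient of -0.33 (-0.40 to -0.26). Its HFD levels of 456, 434, 439, 435 and 419.6 CPM gave a gradient of -0.12 (-0.17 to -0.07), which was 0.24 when every spot was thinned to 1000 UMIs before ranking. The slope of Fah in HFD thus had no settled sign, and its percentile of 50.9 put it in the middle of all genes.

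Tdo2 had no slope in the NCD section, where it was at 1742, 1672, 1670.5, 1705 and 1734 CPM with a gradient of -0.01 (-0.05 to 0.04). In the HFD section it was at 1176, 1280.0, 1269, 1343 and 1488 CPM, with a gradient of 0.34 (0.31 to 0.37), and 92.7% of all genes had a lower one. Leaving mitochondrial genes and the 20 most abundant genes out of the total raised all NCD gradients by 0.15 and all HFD gradients by 0.07, which put Tdo2 at 0.14 in NCD and 0.41 in HFD.

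**Figure D3:**
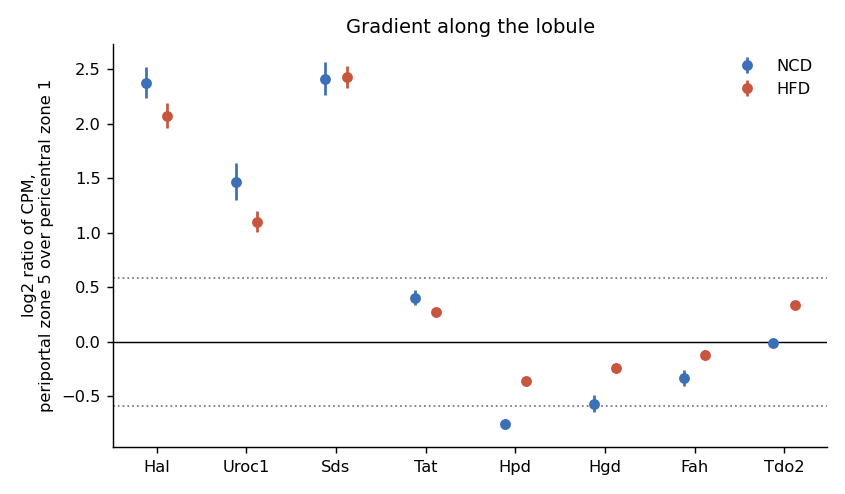
Gradient of each enzyme, the log2 ratio of CPM in zone 5 over zone 1, in NCD (blue) and HFD (red), with exact 95% intervals for counting error and dotted lines at 1.5-fold. Hal, Uroc1 and Sds lay far above the upper line in both sections, and Hpd lay below the lower line in NCD at -0.75 but not in HFD at -0.36.

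The gradients of 7 of the 8 members differed between the sections by more than counting error, as did those of 23.7% of the 6962 genes tested in both sections. These intervals narrow with a gene's UMIs and do not include the spread between animals. Hpd, Hgd and Fah sloped less towards the central vein in HFD, with differences of HFD minus NCD of 0.39 (0.34 to 0.45), 0.33 (0.24 to 0.42) and 0.21 (0.12 to 0.30). Tdo2 gained a periportal slope, with a difference of 0.35 (0.30 to 0.40). The periportal slopes of Uroc1, Hal and Tat were less steep in HFD, by -0.37 (-0.56 to -0.17), -0.30 (-0.48 to -0.12) and -0.13 (-0.20 to -0.06). For Sds the difference was 0.02 (-0.16 to 0.20), and it ran from -0.45 to 0.22 over the alternatives tried. At 1000 UMIs per spot, the gradients of Hal and Uroc1 were 1.28 and 0.58 in HFD and 2.55 and 1.52 in NCD. Their differences, HFD minus NCD, widened to -1.26 and -0.94. Fewer landmark UMIs then ranked the spots, and their part in this was not tested. Landmark genes themselves had differences of both signs, such as 0.70 for Cps1, -1.01 for Hsd17b13 and -0.01 for Cyp2e1, so the ranking need not mark the same distance in both sections.

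Compared zone by zone, the lower level of Hpd, Hgd, Fah and Tdo2 in the HFD section was present at every position and shrank towards the portal vein. The change of a ratio from zone 1 to zone 5 is the difference of gradients given above in another form, not a separate result. For Hpd the log2 ratio of HFD to NCD was -1.05 (-1.08 to -1.02) in zone 1 and -0.66 (-0.70 to -0.61) in zone 5. The corresponding values were -0.62 and -0.30 for Hgd, -0.65 and -0.44 for Fah, and -0.57 and -0.22 for Tdo2. Tat was higher in HFD in all 5 zones, by 0.42 (0.36 to 0.47) in zone 1 and by 0.18 to 0.29 in the others. Outside zone 1 these values were near the whole-section median of 0.21 over all genes.

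The periportal enzymes behaved differently from each other. Hal was lower in HFD in every zone, by the most in zone 3 (-1.09, -1.20 to -0.97) and zone 4 (-1.06, -1.15 to -0.97) and by the least in zone 2 (-0.53, -0.67 to -0.39). Sds was lower in HFD in zone 3 (-0.30, -0.41 to -0.18), zone 4 (-0.54, -0.62 to -0.45) and zone 5 (-0.13, -0.20 to -0.05), and within counting error in zones 1 and 2. The whole-section ratio of Sds was nevertheless 0.05, and zone 5, where Sds was highest, held a larger share of UMIs in HFD than in NCD, as given above. Uroc1 was higher in HFD in zones 1 to 3, by 0.32 (0.16 to 0.48), 0.48 (0.35 to 0.62) and 0.26 (0.14 to 0.38), and within counting error in zones 4 and 5, at 0.04 (-0.07 to 0.16) and -0.05 (-0.16 to 0.06).

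**Figure D4:**
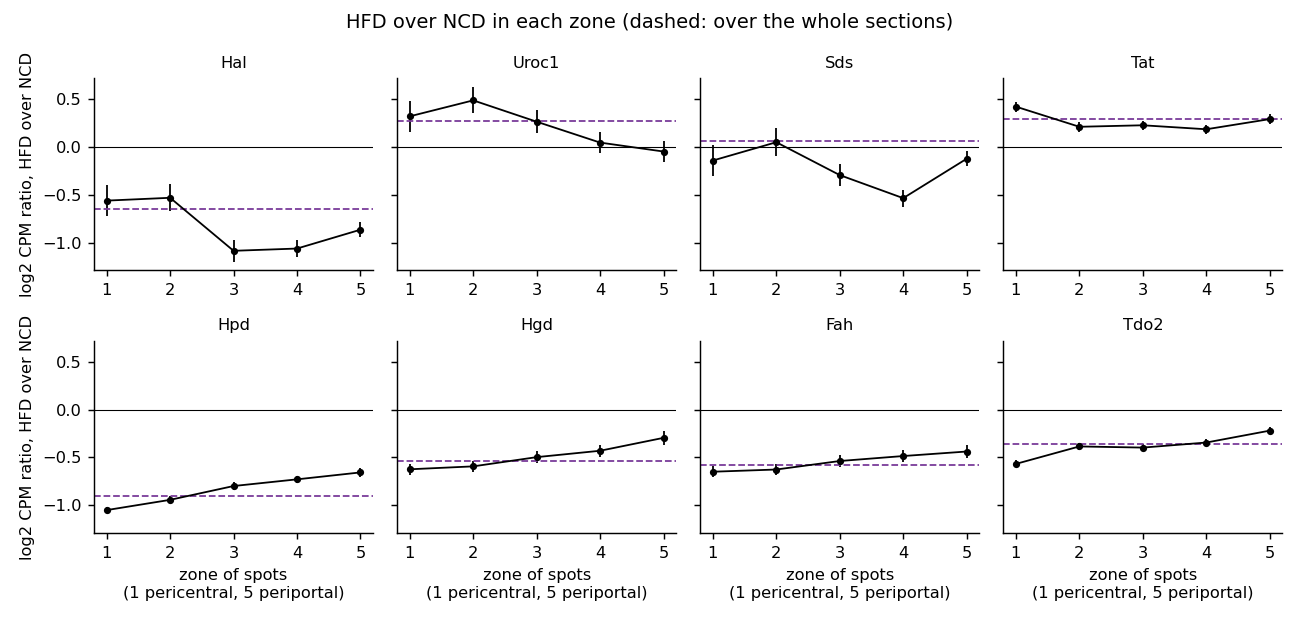
Log2 ratio of HFD to NCD in CPM for each enzyme (vertical axes) within each zone from pericentral (1) to periportal (5) (horizontal axes), with exact 95% intervals for counting error, and the whole-section ratio as a dashed line. Hpd, Hgd, Fah and Tdo2 approached 0 towards the portal vein, Tat stayed above 0, and Uroc1 went from 0.32 to -0.05.

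More spots hold a UMI of an enzyme when depth is higher, so spots were thinned at random to 1000 UMIs each, leaving out 840 NCD and 4 HFD spots with fewer. At that depth Hpd was found in 83.1% (81.7 to 84.5) of NCD spots and 62.6% (61.0 to 64.2) of HFD spots. Before thinning the shares were 86.2% and 99.8%, but of all spots over tissue, including the shallow ones left out here. Tdo2 was found in 82.2% and 73.0%, Hgd in 45.5% and 33.3%, Fah in 50.04% and 34.7%, and Hal in 20.2% and 11.8%. Each of these 5 shares was lower in HFD beyond its exact interval, as the CPM was. Tat was found in 54.8% (53.0 to 56.6) of NCD and 60% (58.4 to 61.6) of HFD spots. Sds was found in 16.3% in both sections, and Uroc1 in 11.7% and 12.9% with overlapping intervals.

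Along the lobule, the thinned share of Hal spots went from 7.0% (5.1 to 9.4) of zone 1 to 39.1% (35.1 to 43.3) of zone 5 in NCD, and from 6.3% to 21.4% in HFD. Sds went from 6.8% to 33.2% in NCD and from 7.1% to 31.9% in HFD, and Uroc1 from 6.5% to 18.4% and from 7.8% to 16.3%. Hpd declined from 91.1% (88.4 to 93.3) to 78.2% (74.6 to 81.6) in NCD, whereas in HFD its 66.0% and 62.3% had overlapping intervals. Pericentral spots thus still held UMIs of the periportal enzymes. A spot spans several cells, and on the NCD slide Hal was at 285 CPM off tissue, above its 85.2 CPM in zone 1. Where the UMIs in pericentral spots came from was not tested.

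Giving each zone its own mean removed part of the variation between spots, by an amount that differed between enzymes and sections. Beyond counting error, Sds varied by 66.5% (coefficient of variation) between ranked NCD spots and by 29.7% around the zone means, and in HFD by 80.4% and 35.6%. The corresponding values for Hal were 56.5% and 22.0% in NCD and 66.7% and 32.5% in HFD. For Uroc1 they were 42.2% and 27.1%, and 33.0% and 19.9%. Tdo2 in NCD varied by 12.9% and 12.8%, and Fah in HFD by 11.6% and 11.2%, so that the zones removed almost nothing. Hpd dropped from 21.5% to 12.6% in NCD but from 22.3% only to 20.3% in HFD.

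RNA of the enzymes was also found off tissue. On the NCD slide each member was at least as high off tissue as over it, from 0.02 on the log2 scale for Tdo2 to 0.44 for Uroc1 and 0.38 for Hal. On the HFD slide each member was lower off tissue, from -0.24 for Hpd to -0.80 for Sds. How much of the NCD signal over tissue came from beyond the spot was not tested.

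Of 55 other genes of amino acid breakdown, 52 passed the minimum for the comparison of diets, and 1 was higher and 6 were lower in HFD by 1.5-fold or more, with a median log2 ratio of -0.11. Over all genes tested 21.2% were higher and 4.1% lower by that size. The lowest were Got1, the cytosolic aspartate aminotransferase (-1.304), Oat, the ornithine aminotransferase (-1.23), and Aass, which starts lysine breakdown (-0.78). The highest were Pcbd1, an enzyme of pterin cofactor recycling (0.59), Kmo of the kynurenine pathway (0.46) and Gpt2, the mitochondrial alanine aminotransferase (0.45). Gstz1, the enzyme that acts between Hgd and Fah, had a log2 ratio of 0.07 and was named after its value was seen, so a lower level in HFD was not found for every enzyme of the later tyrosine pathway. Tdh and Dao had no UMI in either section.

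Along the NCD section, 6 of 51 such genes were higher at the periportal end by 1.5-fold or more and 6 at the pericentral end, and along the HFD section 8 and 3 of 52. Over all genes, 3.11% and 10.8% were past that size in NCD and 3.47% and 7.13% in HFD, so that the pericentral counts were near the share of all genes. The highest in both sections were Gls2, the liver glutaminase (2.36 in NCD, 1.87 in HFD), Sdsl, a paralogue of Sds (2.34, 2.22), and Gldc of the glycine cleavage system (2.005, 1.67). The lowest in both were Oat (-3.69, -4.08), Csad, a taurine synthesis enzyme (-1.50, -1.24), and Prodh, which starts proline breakdown (-1.39, -1.002). The remaining enzymes of histidine breakdown, Amdhd1 (1.95, 1.42) and Ftcd (1.40, 1.004), named after their values were seen, also ran with Hal and Uroc1, so that all 4 histidine enzymes measured were higher at the periportal end in both sections. Of the other serine, glycine and threonine genes, 3 of 9 in each section were periportal by that size and 0 pericentral. The median gradient of that list was 0.01 in NCD and 0.15 in HFD, so most of it did not run with Sds. Of the branched chain genes, 0 of 14 in NCD and 0 of 15 in HFD were periportal by that size, and 2 in NCD (Hibadh -0.70, Bckdhb -0.65, named after their values were seen) and 0 in HFD were pericentral.

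**Figure D5:**
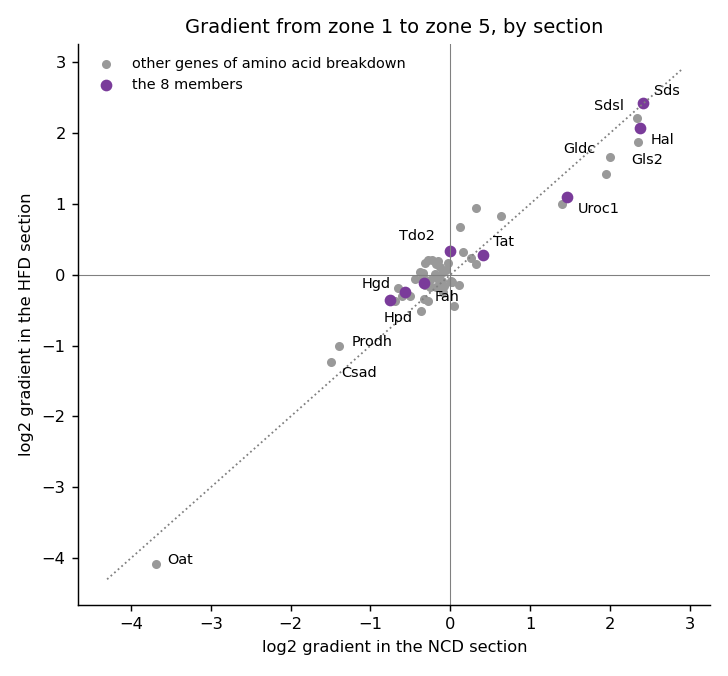
Log2 gradient (zone 5 over zone 1) in the NCD section (horizontal) and the HFD section (vertical) for the 8 members (purple) and the other genes of amino acid breakdown that passed the minimum (grey), with the line of equal gradients dotted. Hal, Sds and Uroc1 lay at the upper right with Gls2, Sdsl and Gldc, and Oat lay alone at the lower left with -3.69 and -4.08.

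The genes whose profile over 10 groups of spots in each section was most like that of a member were sought among 6397 genes with at least 1000 UMIs, after centring each section on its own mean. For Hal the closest was Etnppl, which breaks down phosphoethanolamine, with a root mean square difference of 0.089 on the log2 scale over 20 groups, and the next was Gls2 (0.124), against a median of 0.895 over all candidates. For Sds they were Etnppl (0.135) and Hal (0.154), and for Uroc1 they were Ftcd (0.098) and Mup20 (0.124). Hpd was nearest to Aldh2 (0.044) and Phyh (0.049), Hgd to Ugt2b36 (0.051) and Ugt3a2 (0.056), and Fah to H2-K1 (0.029) and Acaa2 (0.035). Tat was nearest to mt-Co1 (0.043) and Serpina1b (0.048), and Tdo2 to Pzp (0.042) and F2 (0.047). The flatter profiles had many near neighbours, with a median difference of 0.169 over all candidates for Fah, and the 20 groups share 2 libraries.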

How the data were processed

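The measurement was 10x Visium on 1 NCD and 1 HFD liver section. The authors deposited raw UMI counts without normalization, for all spots and for those called over tissue, after processing with Space Ranger 1.3.1. The submitters' processing notes name mm10, and the annotation is not given in the sources used here. Groups came from the labels.

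Counts were summed over spots and divided by all UMIs of those spots (CPM). Ratios have exact conditional binomial intervals, sums exact Poisson intervals, shares exact Clopper-Pearson intervals and differences of gradients Wald intervals, all at 95%. Spots were scored by the mean z-score of log counts per 10000 over periportal minus pericentral landmarks. Genes needed 500 UMIs over both sections, or 200 within one, to be tested. Thinning used seed 1. Scripts ran in Python 3.11.15 with pandas 2.3.3, numpy 2.4.6, matplotlib 3.10.9 and scipy 1.17.1. The method was also run on simulated counts. Apart from set changes, these varied by counting error only, so they do not test the intervals against the further spread between spots. Of the 32285 gene identifiers, 32158 were in GENCODE M21.

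All 8 members are named, with the 3 highest and 3 lowest other genes of amino acid breakdown in each comparison, the hormone response genes, and the 2 genes most like each member. The members and lists were chosen with earlier results of these data known, and the equal weighting of the 5 zones after seeing the data. Alternatives changed the spots used, their weighting, the total, the scaling, the depth, the landmarks, the number of groups and the call limit. For the diet ratios only, they also changed the off-tissue background. Spot positions, images and scRNA-seq were not used here.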

Additional observations from a re-analysis of the deposited data

Results flagged for a closer look

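UMIs of the 8 enzymes were present in spots off tissue, which the main comparisons did not use and only some alternatives for the diet ratios did. Together the members had 45287 UMIs in 1300 such spots on the NCD slide and 7526 UMIs in 1398 such spots on the HFD slide. These spots made up 19.1% of all UMIs of the NCD slide and 2.93% of those of the HFD slide. Hal reached 285 CPM off tissue on the NCD slide, above its 219 CPM over tissue, and 97.8 CPM off tissue on the HFD slide, below its 139.6 CPM over tissue.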

How the results depend on the processing

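With 1 section per diet, no value has a replicate check. No paired analysis was possible because each diet has 1 section. Depth limits Hal, Sds and Uroc1 most, with 6350, 5397 and 3618 UMIs in the NCD section. Between diets, 2 members were lower in HFD by 1.5-fold or more, and this count became 3, with Fah, over all spots of the capture area and with CPM averaged over spots, 4 with ratios centred on the median of all genes, 4 at 1000 UMIs per spot, 0 at 2-fold and 0 with the off-tissue profile subtracted, which also made 3 members higher (Fah, Tat and Sds). Along the NCD section, 1 member was higher at the pericentral end, and the count became 2, with Hgd, at a minimum of 300 UMIs per spot, with 10 zones in place of 5, without urea cycle landmarks and at 1000 UMIs per spot, and 0 at 2-fold. Hal, Sds and Uroc1 were counted as periportal under the 11 alternatives in both sections. At 1000 UMIs per spot, Uroc1 in HFD lay at the limit itself (0.58). The off-tissue profile was subtracted for the diet ratios only, so its effect on the gradients was not tested. Hpd kept a log2 ratio of diets between -1.11 and -0.26, and its NCD gradient lay between -0.90 and -0.60. The gradient of Tdo2 in NCD ran from -0.02 to 0.14, and that of Fah in HFD from -0.16 to 0.24. The cause of these shifts was not tested.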

Other observations

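The 10 genes of the response to glucocorticoids, glucagon and fasting were measured beside the enzymes, and 6 of them were higher in the HFD section by 1.5-fold or more, as were 21.2% of all genes, with a median log2 ratio of 0.74 over the list against 0.21 over all genes. Per1, a clock gene that glucocorticoids induce, was at 1.54 (HFD over NCD, log2), Fkbp5, a chaperone of the glucocorticoid receptor, at 1.46, and Tsc22d3, which encodes a glucocorticoid-induced leucine zipper protein, at 1.17. Cebpb (0.91) and Foxo1 (0.90), transcription factors of the fasting response, were also past that size. Ppargc1a, their coactivator, was barely past it at 0.59 (0.29 to 0.90), with 116 UMIs in NCD and 433 in HFD. The receptors themselves were nearer to the median of all genes, with 0.15 for Nr3c1 (glucocorticoid receptor) and 0.17 for Gcgr (glucagon receptor), as was Cebpa (0.07), and Creb3l3 was at 0.53. Tat, a textbook target of the same hormones, was at 0.29, Sds at 0.05 and Tdo2 at -0.36. None of the hormone response genes that passed the minimum reached 1.5-fold along the lobule in either section. Over all genes, 3.11% in NCD and 3.47% in HFD were periportal by that size, and 10.8% and 7.13% pericentral. Per1 in NCD, at -0.579 (-1.24 to 0.05), and Fkbp5 in HFD, at 0.54 (0.36 to 0.72), lay just inside the limit. Time of day at collection and whether the livers were taken in the fasted state are not given in the sources used here, and their part in these values was not tested.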
